A study of Homo sapiens with 36 samples.

Results

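The report describes the long intergenic noncoding RNAs that carry a LINC number, the systematic name given to long noncoding RNA genes without a functional name of their own. A gene was a member when the deposited annotation called it a lncRNA, its symbol was LINC followed only by digits, and its mean over the 9 input libraries was at least 1 CPM, the read count scaled to a common library total. The rule found 161 genes with 160 symbols, since LINC01605 has 2 gene identifiers, out of 2124 LINC genes and 60675 genes in the count tables. Of the 2124 LINC genes, 874 had no count in any input library. The nearest genes below the limit were LINC02361 at 0.993 CPM, LINC02615 at 0.990 and LINC02916 at 0.985, and the nearest above it were LINC02166 at 1.004, LINC02897 at 1.006 and LINC01023 at 1.011. All 161 members passed the filter on low counts and were tested.

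YTHDF1, YTHDF2 and YTHDF3 are cytoplasmic proteins that bind RNA carrying N6-methyladenosine (m6A), a methyl mark set on adenosines of messenger and long noncoding RNAs. Pulling a reader protein down with an antibody and sequencing the RNA that comes with it (RNA immunoprecipitation, RIP) measures which transcripts are over-represented with that protein relative to the input lysate. Fusing a reader to the catalytic part of ADAR, an enzyme that turns adenosine into inosine, leaves edits on RNAs the fusion meets, which is the principle of the TRIBE assay. Long intergenic RNAs are transcribed outside protein-coding genes, are mostly spliced and polyadenylated, and are often retained in the nucleus.

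The study used HEK293T cells, a transformed human embryonic kidney line, in 3 lines that express YTHDF1-ADAR, YTHDF2-ADAR or YTHDF3-ADAR. All 36 libraries came from cells given doxycycline at 1 µg/mL for 24 h to induce the fusion, so no group lacks a fusion protein. From each line there were 3 input libraries and 3 RIP libraries with each of the antibodies to endogenous YTHDF1, YTHDF2 and YTHDF3, which makes 12 groups of 3. All RIPs of a line are set against the same 3 inputs. Whether the antibodies also bind the fusion proteins, and whether replicates are separate cultures, is not stated in the labels, so the spread that p-values rest on is that between libraries and may be technical. Values given for the lines in turn are in the order of the fusion they carry, 1 to 3.

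The name intergenic was checked against the coordinates of the count tables (GRCh38) and against a reference list of gene names. In that list 10 members had another symbol. For 9 of them it was a divergent (-DT) or antisense (-AS) name taken from a neighbouring gene, as in LINC00337 (ICMT-DT). These stayed members under the deposited symbols. The span of 50 members overlapped no other gene, the span of 111 overlapped at least 1, and for 42 of them that gene was protein coding. Exon bases were shared with another gene in 86 members, and 5 shared at least 50% of them. Reads were counted without strand, so values of these members can include reads of the partner. The members were spread over the genome, with 26 on chromosome 1, 11 on chromosome 2, and 8 each on chromosomes 21 and X. Their union exon length ran from 196 to 33198 bases with a median of 3823, and 23 consisted of a single exon block.

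Multi-mapped reads were also counted, so members with near-identical copies can share reads. Promoter windows of 300 bases (250 before to 50 after the RefSeq start, GRCh38.p14) were found for 114 of the 161 members, and 2 pairs of them were near copies. They are shown because the members of each pair had like fold changes in the comparisons given for them, and a read aligned to both copies would be counted for both. The exons of the copies were not compared, and how many reads they share was not measured. LINC01123 (chr2:109986730-109987029, plus strand) and LINC01106 (chr2:110384487-110384786, minus strand) were identical over the 289 aligned bases. LINC01001 (chr11:131804-132103, minus strand) and LINC01002 (chr19:202160-202459, minus strand) matched at 230 of 233 aligned bases. Capitals mark the longest run that both members of a pair share, 289 bases in the first pair and 126 in the second. The pairs were picked after the values had been seen.
LINC01123: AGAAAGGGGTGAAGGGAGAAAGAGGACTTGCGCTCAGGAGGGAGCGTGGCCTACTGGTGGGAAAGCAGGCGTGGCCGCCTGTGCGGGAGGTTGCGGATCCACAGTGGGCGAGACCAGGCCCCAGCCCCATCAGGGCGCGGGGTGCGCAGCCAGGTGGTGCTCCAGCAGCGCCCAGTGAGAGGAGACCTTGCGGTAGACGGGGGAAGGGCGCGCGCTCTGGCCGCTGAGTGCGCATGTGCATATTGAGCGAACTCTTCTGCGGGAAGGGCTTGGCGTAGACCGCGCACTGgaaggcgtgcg
LINC01106: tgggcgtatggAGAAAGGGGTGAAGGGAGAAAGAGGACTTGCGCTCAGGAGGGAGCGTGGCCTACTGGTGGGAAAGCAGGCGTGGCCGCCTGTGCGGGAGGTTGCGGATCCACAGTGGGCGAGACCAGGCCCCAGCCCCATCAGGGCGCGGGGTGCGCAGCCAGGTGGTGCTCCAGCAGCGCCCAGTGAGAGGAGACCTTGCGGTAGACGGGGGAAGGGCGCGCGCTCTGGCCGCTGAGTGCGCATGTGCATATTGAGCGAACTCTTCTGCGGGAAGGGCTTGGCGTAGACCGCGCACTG
LINC01001: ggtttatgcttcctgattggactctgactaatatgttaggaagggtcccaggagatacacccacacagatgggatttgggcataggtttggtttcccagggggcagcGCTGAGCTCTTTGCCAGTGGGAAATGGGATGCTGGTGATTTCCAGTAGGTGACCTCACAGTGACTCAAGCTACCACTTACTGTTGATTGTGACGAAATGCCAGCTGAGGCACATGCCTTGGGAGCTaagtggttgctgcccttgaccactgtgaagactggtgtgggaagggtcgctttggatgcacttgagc
LINC01002: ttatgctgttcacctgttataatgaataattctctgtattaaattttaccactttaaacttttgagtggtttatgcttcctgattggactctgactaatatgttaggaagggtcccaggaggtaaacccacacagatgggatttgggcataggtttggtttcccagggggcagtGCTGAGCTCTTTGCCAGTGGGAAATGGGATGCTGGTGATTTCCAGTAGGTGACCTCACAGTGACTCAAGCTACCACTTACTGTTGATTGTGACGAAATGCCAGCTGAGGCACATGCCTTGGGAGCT

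Several libraries stood apart before any comparison. Libraries held 12.5 to 37.5 M counts, and the 161 members together made up 0.102% to 0.149% of the counts of the inputs. The 6 YTHDF1 RIP libraries from the lines with YTHDF2-ADAR or YTHDF3-ADAR held 12.5 to 16.3 M counts against 15.9 to 37.5 M in the other 30, and 0.697% to 4.35% of their counts fell on snoRNAs, against at most 0.564% in the others. Summed olfactory receptor genes, which HEK293T cells are not known to use, reached 31.7 to 53.2 CPM in these 6 and at most 18.3 CPM elsewhere. Their part in the YTHDF1 results of those lines was not tested, and those comparisons have no value without them. The lowest count total and the highest snoRNA and olfactory values of the other 30 all came from 1 library, replicate 3 of the YTHDF2 RIP of YTHDF1-ADAR cells, with 15.9 M counts, 0.564% snoRNA, 18.3 CPM of olfactory genes and 82.8% of its counts on protein-coding genes, against 90.04% and 90.35% in the other replicates of that RIP. Replicate 1 of the YTHDF1-ADAR input also stood apart, with 13.6 CPM of olfactory genes against at most 4.58 in the other inputs and the highest member share of any input, 0.149%. Among the markers reported here, NEFM (260 to 1640 CPM), VIM, INA and XRCC5 were present in every input, and other lists were mixed. Of the 4 blood markers PTPRC and HBB were at 0 in every input, CD3E reached 0.0334 CPM and CD79A 0.198. Of the 5 fibroblast markers COL1A2 was at 0 in every input, DCN, LUM and COL3A1 reached 0.0968, 0.446 and 1.36 CPM, and COL1A1 held 13.8 to 30.2. Of the 4 epithelial and hepatocyte markers KRT5 was at 0 in every input, ALB and APOA1 reached 0.113 and 0.301 CPM, and CDH1 held 3.05 to 6.63.

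The input level of most members was low. The mean CPM over inputs, on total counts, had a median of 2.94 CPM and a maximum of 77.9, with 30 members above 10 CPM. Per kilobase of exon the median was 0.887 CPM, and the highest level was that of LINC02067 (chr3:161426427-161448242) at 13.3 CPM per kilobase. The 8 most abundant members by CPM were LINC00632, LINC02693, LINC00205, LINC02067, LINC00641, LINC02381, LINC00294 and LINC01123, from 77.9 down to 28.7 CPM. In bulk RNA, fewer cells with a transcript and less of it per cell cannot be told apart.

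LINC00205 (ENSG00000223768, chr21:45288050-45297806, plus strand, exon length 7619), reported to be raised in liver cancer, overlapped no other gene. In YTHDF1-ADAR cells its inputs held 62.1, 53.9 and 63.1 CPM and its YTHDF1 RIP libraries 254, 235 and 181 CPM. The YTHDF2 RIP libraries of that line held 123, 131 and 101.98 CPM and the YTHDF3 RIP libraries 101, 97.5 and 85.9. Every RIP library of the line was above every input, with YTHDF1 highest and YTHDF3 lowest. The log2 fold changes against input were 1.90 ± 0.14 (SE) for YTHDF1 (adjusted p = 3.3e-13, edgeR), 0.99 ± 0.14 for YTHDF2 (adjusted p = 9.8e-07) and 0.67 ± 0.14 for YTHDF3 (adjusted p = 0.0002). YTHDF2 RIP gave 1.12 and 0.89 and YTHDF3 RIP 0.84 and 0.74 in YTHDF2-ADAR and YTHDF3-ADAR cells. These 6 calls of YTHDF2 and YTHDF3 RIP held when any 1 library was left out, under both other scalings and in DESeq2, and among higher calls LINC00205 was the only member for which that was true of both proteins in all 3 lines. Among lower calls it was true of LINC00571, LINC00649, LINC01588 and LINC02381. Its YTHDF1 RIP values in the other lines were -0.21 and 0.13, neither past the threshold.

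**Figure D1:**
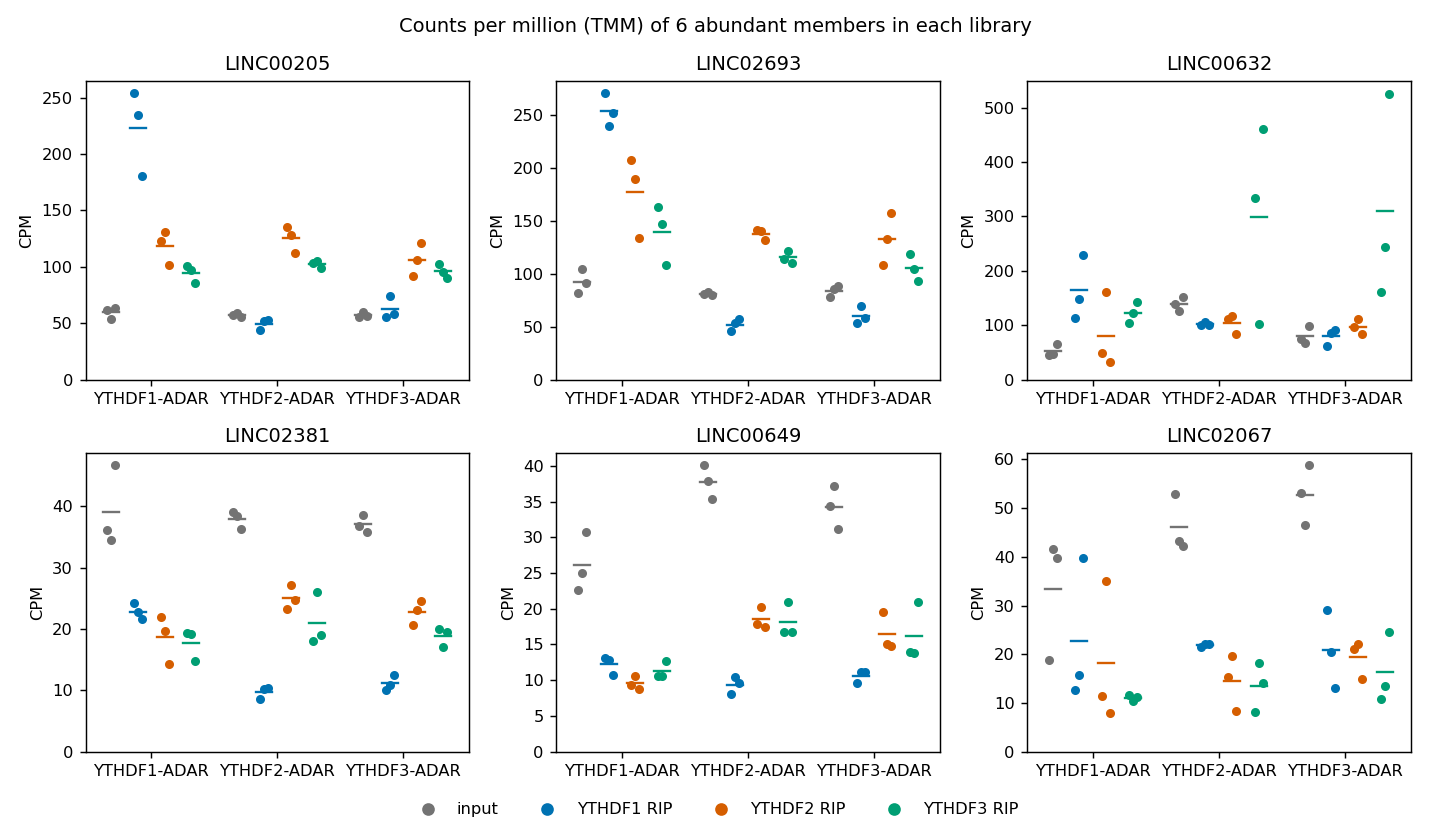
CPM (TMM scaled) of 6 abundant members in each of the 36 libraries, 3 points and their mean (line) per group, ordered input, YTHDF1, YTHDF2 and YTHDF3 RIP within each line. LINC00205 lies above its inputs in all YTHDF2 and YTHDF3 RIP libraries, LINC02381 and LINC00649 lie below their inputs in all RIP libraries, and LINC00632 spreads from 103 to 461 CPM among the YTHDF3 RIP libraries of YTHDF2-ADAR cells.

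LINC00632 (ENSG00000203930, chrX:140709562-140793215, plus strand, exon length 28876) is the host transcript of CDR1as, a circular RNA with many miR-7 sites, and was the most abundant member. Since CDR1 lies within it on the other strand and takes 2.73% of its exon bases, linear, circular and antisense RNA were counted together. Its inputs held 45.7 to 65.2 CPM in YTHDF1-ADAR, 127 to 153 in YTHDF2-ADAR and 66.7 to 98.5 in YTHDF3-ADAR cells. The YTHDF3 RIP libraries held 105, 122 and 142 CPM in YTHDF1-ADAR, 333, 103 and 461 in YTHDF2-ADAR and 161, 245 and 524 in YTHDF3-ADAR cells, all above their inputs except the 103. YTHDF3 RIP rose over input in YTHDF3-ADAR cells by 1.95 ± 0.48 (adjusted p = 0.0026), and by 1.31 without replicate 3 of that RIP. YTHDF1 RIP rose over input in YTHDF1-ADAR cells by 1.64 ± 0.48 (adjusted p = 0.0059).

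The YTHDF1 comparison asked which LINC RNAs came down with the YTHDF1 antibody. In YTHDF1-ADAR cells 47 members rose over input and 42 fell, 55.3% of 161, where 49.5% of the 31849 genes tested were called (20.6% higher, 28.8% lower). In YTHDF2-ADAR cells 83 rose and 38 fell (background 75.2%, with 41.8% higher and 33.4% lower), and in YTHDF3-ADAR cells 77 rose and 28 fell (background 73.2%, with 40.8% higher and 32.4% lower). The median log2 fold change of members lay above that of all genes tested by 0.35, 0.41 and 0.27, in the same order of lines. The all-gene median itself was -0.28, 0.20 and 0.21, and ran from -0.28 to -0.13, 0.20 to 0.72 and 0.21 to 0.54 over the scalings. The distance between members and all genes was 0.35 to 0.36, 0.41 and 0.27 over the same scalings. A scaling moves all genes of a comparison by nearly the same amount, so it could not test this distance. Leaving out 1 library at a time, the all-gene median ran from -0.36 to -0.03, -0.10 to 0.22 and -0.07 to 0.19, and the distance from 0.18 to 0.46, 0.34 to 0.46 and 0.16 to 0.34. The distance of 0.18 was that without YTHDF1-ADAR input replicate 1, and the distance of 0.16 that without replicate 3 of the YTHDF1 RIP of YTHDF3-ADAR cells. Over the 56 members with a mean input of 5 CPM or more the distance was 0.53, 0.16 and -0.0024, so in YTHDF3-ADAR cells these members did not lie above the reference. That reference was still the median of all genes tested, of any input level. A reference limited to genes of 5 CPM or more was not made. Scaled by total counts, 101 rose and 13 fell in YTHDF2-ADAR and 92 and 17 in YTHDF3-ADAR cells. Here and below, member counts under another scaling, a left-out library or DESeq2's test are given without the share of all genes called there. They show how far a count moves and are no result about the members against all genes. The higher calls held under every left-out library, other scaling and DESeq2 for 38 of 47, 52 of 83 and 55 of 77 members, and the lower calls for 27 of 42, 13 of 38 and 16 of 28. Without replicate 1 of the YTHDF1-ADAR input 51 rose and 34 fell in that line.

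**Figure D2:**
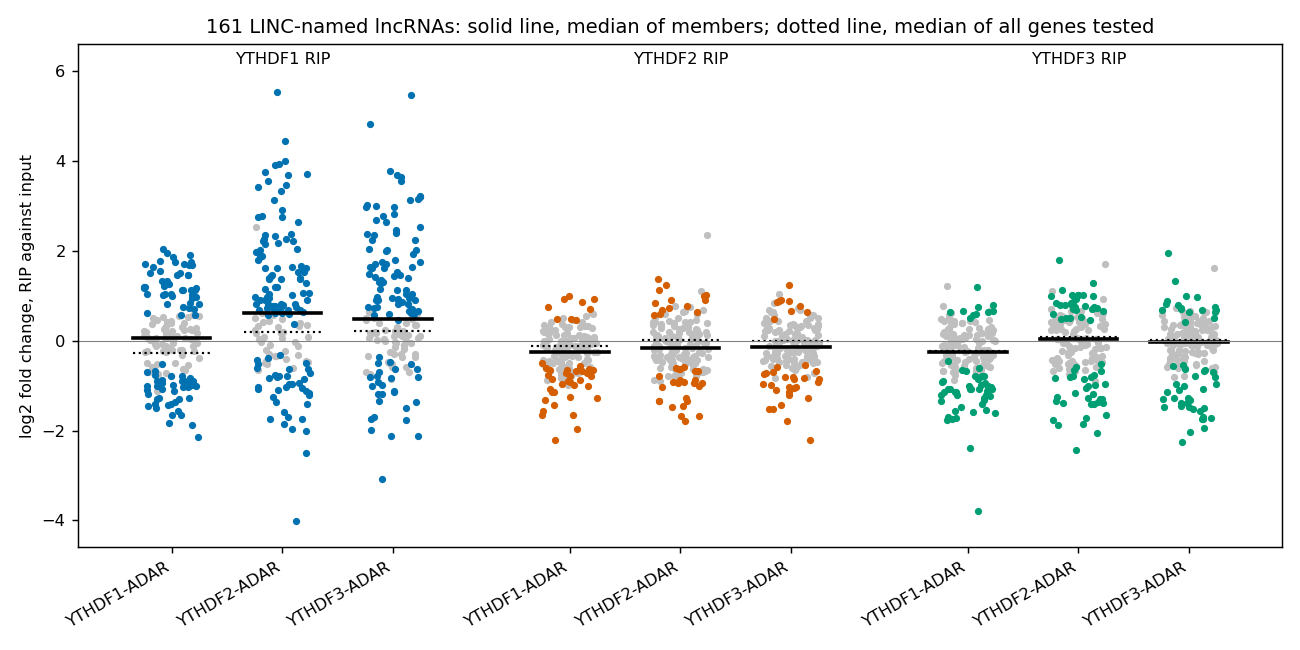
log2 fold change of RIP against input (vertical axis) for each of the 161 members in the 9 comparisons, with called members in colour, the members' median as a solid line and the median of all genes tested as a dotted line. Values reach from -4.02 to 5.54 in the YTHDF1 RIP of YTHDF2-ADAR cells, wider than in the YTHDF2 and YTHDF3 comparisons.

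The members with the highest YTHDF1 enrichment in YTHDF1-ADAR cells were LINC01500 and LINC00857, then LINC00205. LINC01500 (chr14:58646631-59184247, plus strand, 5.55% of exon bases shared with DACT1) held 2.84, 2.65 and 3.45 CPM in the inputs and 12.5, 13.8 and 10.3 in the YTHDF1 RIP. LINC00857 (chr10:80207372-80219657, plus strand), reported in lung cancer cells, held 1.37, 2.11 and 2.53 CPM in the inputs and 8.61, 7.74 and 7 in the RIP. For both, all RIP libraries were above all inputs. Their log2 fold changes were 2.03 ± 0.23 (adjusted p = 1.8e-09) and 1.95 ± 0.25 (adjusted p = 3.5e-08). LINC01547 (chr21:44932814-44939937), 1.87, and LINC01694 (chr21:45593654-45603088), 1.70, lie on the same chromosome as LINC00205 and also rose, and were named after their values had been seen.

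At the other end, LINC01709 (chr1:101639509-101787572, plus strand, 7.72% of exon bases shared with the pseudogene RPSAP19) had the lowest values. It held 2.60, 8.34 and 7.68 CPM in the YTHDF1-ADAR inputs and 2.24, 0.527 and 1.47 in the YTHDF1 RIP, so all RIP libraries were below all inputs. The log2 fold change was -2.13 ± 0.53 (adjusted p = 0.0011) there, and -4.02 and -3.09 in YTHDF2-ADAR and YTHDF3-ADAR cells. LINC01535 (chr19:37251885-37265535) at -1.89 and LINC00173 (chr12:116533422-116536518) at -1.82 were the next lowest called members in YTHDF1-ADAR cells.

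The YTHDF1 enrichment differed between lines in 114 of 161 members (edgeR test of the line by RIP interaction, 63.7% of all genes called), and 87 of these calls held under every left-out library, scaling and DESeq2. Over the 161 members the log2 fold changes of YTHDF2-ADAR and YTHDF3-ADAR cells, which share no library, had a Pearson correlation of 0.973. Those of YTHDF1-ADAR cells correlated with them at -0.101 and -0.053. These are descriptions across genes of libraries with like depth and snoRNA content in the first case, and the part of the 6 libraries that stand apart was not tested.

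**Figure D3:**
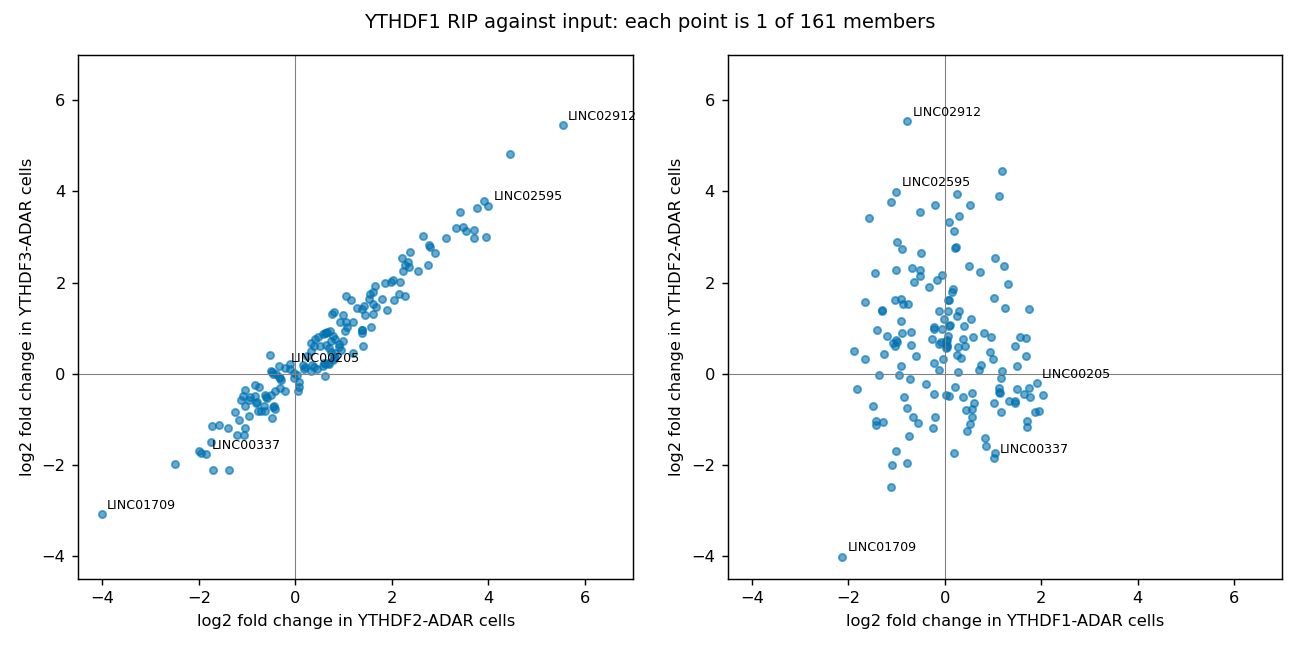
YTHDF1 RIP against input, log2 fold change, for each of the 161 members: YTHDF2-ADAR against YTHDF3-ADAR cells on the left and YTHDF1-ADAR against YTHDF2-ADAR cells on the right. Points follow the diagonal on the left (Pearson 0.973) and not on the right (-0.101), where LINC02595 and LINC00337 lie in opposite quadrants.

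Patterns of calls over the 3 lines were counted for the members only, here and below. The same counts were not made over all genes tested, so they have no background to be set against. YTHDF1 RIP was higher than input in all 3 lines for 12 members, 6 of them under every alternative: LINC00511, LINC00630, LINC00648, LINC00662, LINC02591 and LINC02878. Here and below, every alternative means each left-out library, both other scalings and DESeq2's test. Fits without a filter on low counts or with a replicate block were not part of this. LINC00662 (chr19:27681072-27794005, minus strand) was the longest member, with 33198 exon bases. In YTHDF1-ADAR cells it held 16.1, 10.4 and 9.63 CPM in the inputs and 24.5, 24.9 and 23.7 in the YTHDF1 RIP, in YTHDF2-ADAR cells 12.1, 14.2 and 14.0 against 43.9, 43.7 and 40.1, and in YTHDF3-ADAR cells 13, 13 and 12.6 against 34.0, 35.7 and 36.3. The RIP libraries were above the inputs in each line, and the log2 fold changes were 1.02, 1.67 and 1.45, each ± 0.18 or 0.19. LINC00511 (chr17:72290091-72640472, minus strand, exon length 27654), which has been studied as a growth-promoting RNA in tumours, gave 1.22, 2.37 and 2.67. Its inputs in YTHDF1-ADAR cells were 5.82, 1.75 and 2.19 CPM, the first from the replicate that stands apart, and without it the value was 1.88. Without replicate 1 of the YTHDF2-ADAR input, which held 1.22 CPM, the value of that line was 1.78.

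YTHDF1 RIP was lower than input in all 3 lines for 8 members, 5 of them under every alternative: LINC00649, LINC01315, LINC01618, LINC01709 and LINC02381. LINC02381 (ENSG00000250742, chr12:54126082-54147485, plus strand) shares 24.3% of its exon bases with ENSG00000260470. It held 39.0, 38.4 and 36.3 CPM in the YTHDF2-ADAR inputs, 8.55, 10.3 and 10.4 in the YTHDF1 RIP, 23.2, 27.1 and 24.8 in the YTHDF2 RIP and 18.1, 26.0 and 19.1 in the YTHDF3 RIP. All RIP libraries were below all inputs, and this was so in the other lines as well. LINC00649 (ENSG00000237945, chr21:33915534-33977691, plus strand, exon length 14336) fell by 1.09, 2.01 and 1.69 on the log2 scale with YTHDF1. Its 9 calls against input, one for each RIP and line, held under every left-out library, both other scalings and DESeq2's test.

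YTHDF1 RIP was higher than input in YTHDF1-ADAR cells and lower in both other lines for 11 members, 5 of them under every alternative (LINC00294, LINC00337, LINC01003, LINC01694 and LINC02637). It was lower in YTHDF1-ADAR cells and higher in both other lines for 18 members, 4 of them under every alternative (LINC00106, LINC01001, LINC01002 and LINC01409). Neither pattern was counted over all genes. The 18 include LINC00216, LINC01004 and LINC02595, which reached the 1 CPM limit through the YTHDF1-ADAR inputs alone. A limit passed in this way favours the second pattern, and its part in the count was not tested. None of these members is among the 4. LINC00337 (chr1:6234692-6239444, plus strand, 3.77% of exon bases shared with ICMT) is one of the members with a divergent name, ICMT-DT. It held 16.1, 19.6 and 18.3 CPM in the YTHDF1-ADAR inputs and 42.4, 38.6 and 29.1 in the YTHDF1 RIP. In YTHDF2-ADAR cells it held 15.5, 18.6 and 15.4 CPM in the inputs and 4.44, 4.66 and 4.61 in the RIP, and in YTHDF3-ADAR cells 26.3, 25.2 and 22.3 against 6.4, 8.24 and 7.06. The groups did not overlap in any line, and the direction turned. The log2 fold changes were 1.03, -1.85 and -1.76 (adjusted p of the interaction 1.4e-12).

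LINC02595 (ENSG00000231566, chrX:45847042-45851541, minus strand, no overlapping gene) had the smallest interaction p of the members, an adjusted 5.4e-13. Its YTHDF2-ADAR inputs held 0.803, 0.901 and 0.824 CPM and the YTHDF1 RIP 13.7, 12.5 and 14.1, and the YTHDF3-ADAR inputs held 0.959, 0.831 and 0.957 against 13.1, 10.6 and 11.7. The log2 fold changes of 3.99 and 3.68 were among the highest of these lines. In YTHDF1-ADAR cells it was -1.01, with inputs of 5.53, 2.88 and 2.46 CPM, through which alone it reached the 1 CPM limit, and this call was lost without the first of them, at -0.63. LINC01001 and LINC01002, the near copies, gave -0.87 and -1.03 in YTHDF1-ADAR, 1.53 and 1.61 in YTHDF2-ADAR and 1.65 and 1.79 in YTHDF3-ADAR cells, and the reads that the copies may share were not measured. LINC00106 (chrX:1396427-1399402), in the pseudoautosomal region, gave -1.58, 3.42 and 3.55, and its YTHDF1-ADAR value was -0.84 without input replicate 1.

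**Figure D4:**
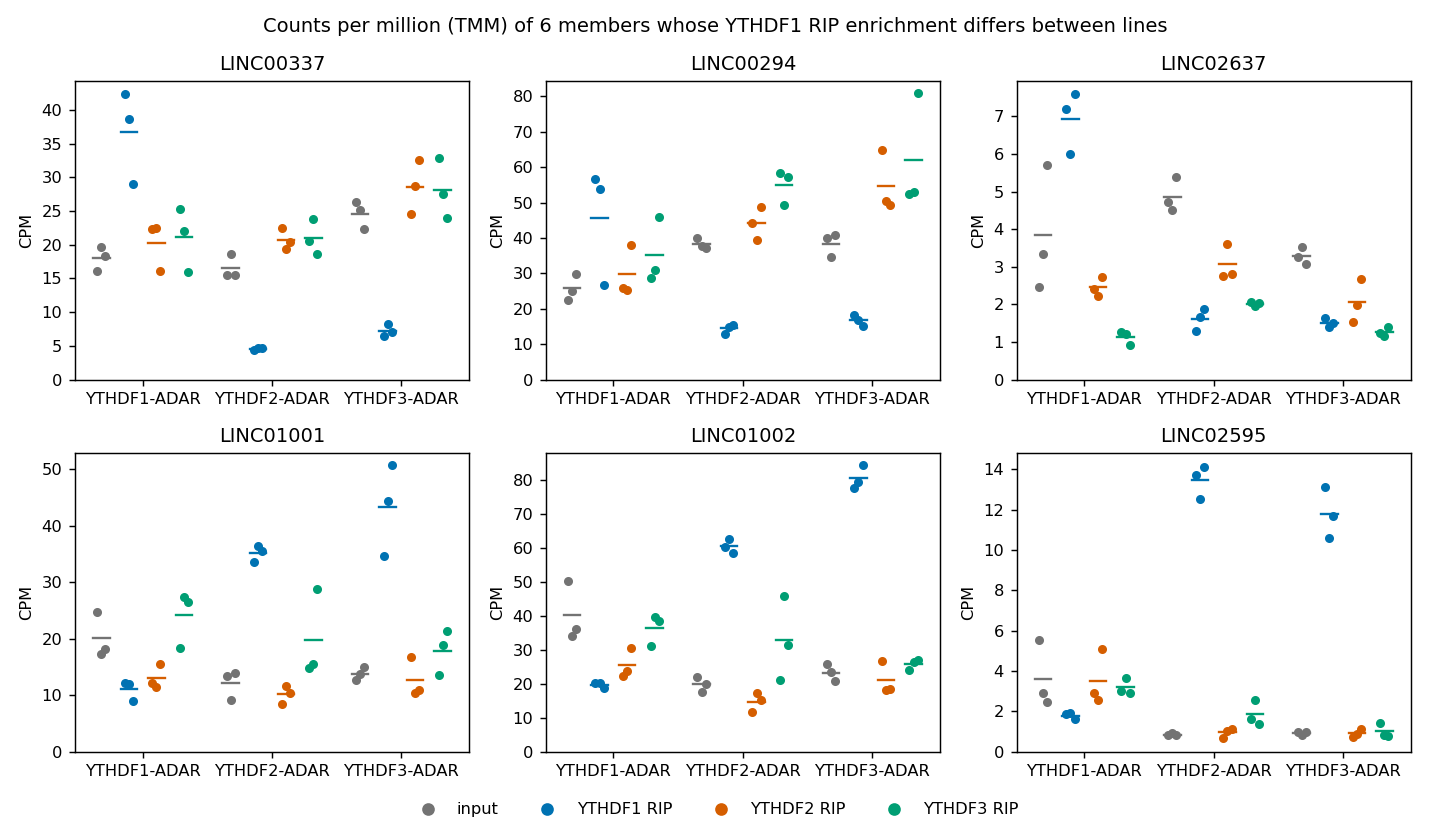
CPM (TMM scaled) of 6 members whose YTHDF1 RIP enrichment differed between lines, 3 points and their mean per group, ordered input, YTHDF1, YTHDF2 and YTHDF3 RIP within each line. LINC00337 rises from at most 19.6 to at least 29.1 CPM in YTHDF1-ADAR cells and drops to at most 8.24 in the others, and LINC02595 does the reverse.

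In the 6 libraries that stand apart LINC02912 (5.54 and 5.46) and LINC00342 had the highest values. LINC02912 held 6.62, 1.36 and 0.883 CPM in the YTHDF1-ADAR inputs, and reached the 1 CPM limit through these alone, as did LINC00216, LINC01004, LINC01176 and LINC02595. Its inputs held 0.279, 0.118 and 0.390 CPM in YTHDF2-ADAR and 0.153, 0.192 and 0.120 in YTHDF3-ADAR cells, so its fold changes there rest on inputs near 0. LINC00342 (chr2:95807052-95835003, minus strand) held 2.49, 2.08 and 2.91 CPM in the YTHDF3-ADAR inputs and 50.1, 72.8 and 87.1 in the YTHDF1 RIP, a log2 fold change of 4.81 ± 0.46 (adjusted p = 9.3e-10). It held 4.68, 3.49 and 6.42 against 98.4, 120 and 98.7 in YTHDF2-ADAR cells, 4.45. In YTHDF1-ADAR cells its inputs held 32.6, 7.41 and 8.90 CPM, and replicate 1 was again the high one. Its value there was 1.19, rose to 2.13 without that library, and lost its call without input replicate 2 (0.84) or RIP replicate 2 (0.81).

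YTHDF2 RIP moved fewer members than YTHDF1 RIP, as it did over all genes tested. With the main scaling more members fell than rose. In the 3 lines in turn 9, 14 and 9 members rose and 33, 26 and 26 fell. The backgrounds in the same order were 24.1% (8.66% higher, 15.5% lower), 20.3% (10.2% and 10.1%) and 18.9% (8.98% and 9.93%), and the members' shares called in either direction were 26.1%, 24.8% and 21.7%. The members' median lay below that of all genes by 0.16, 0.19 and 0.14 on the log2 scale. Over the scalings it lay below by 0.13 to 0.20, but these move members and all genes nearly alike and could not test the difference. Leaving out 1 library at a time, the differences ran from -0.22 to -0.11, -0.25 to -0.17 and -0.25 to -0.08. In YTHDF3-ADAR cells the difference was -0.25 without RIP replicate 1, -0.09 without input replicate 1 or RIP replicate 2 and -0.08 without RIP replicate 3. Over the 56 members with 5 CPM or more the differences were 0.0074, -0.17 and -0.14, so the first did not hold its direction there. The reference was still the median of all genes tested, of any input level. With total counts 13, 28 and 18 rose and 11, 16 and 14 fell, and with DESeq2 size factors 10 rose and 20 fell in YTHDF1-ADAR cells, so the share of lower calls depends on the scaling. In YTHDF1-ADAR cells the number called dropped from 42 to 25 without input replicate 3, 22 without RIP replicate 1 and 26 without RIP replicate 2. Without RIP replicate 3 of that line, which stands apart, 13 rose and 22 fell, and LINC00205 gave 1.17. In YTHDF3-ADAR cells it dropped from 35 to 23 without RIP replicate 2 and 19 without RIP replicate 3.

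With YTHDF2, LINC00205, LINC01106, LINC01123, LINC01128, LINC01500 and LINC02693 rose in all 3 lines, and LINC00205 and LINC01123 did so under every alternative. LINC01123 (chr2:109987063-109996140, plus strand), which shares 29.2% of its exon bases with the pseudogene ZBTB45P1, held 33.7, 33.7 and 33.9 CPM in the YTHDF2-ADAR inputs and 54.0, 53.7 and 50.5 in the YTHDF2 RIP. All RIP libraries were above all inputs there and in the other lines. The values were 0.47, 0.64 and 0.77, and those of its near copy LINC01106 were 0.45, 0.69 and 0.87, the first of which lost its call without YTHDF1-ADAR input replicate 1, at 0.38. LINC02693 (ENSG00000212719, chr17:21428263-21574517, minus strand), which overlaps 10 other genes in its span, held 80.6, 83.0 and 80.2 CPM in the YTHDF2-ADAR inputs and 141, 141 and 132 in the YTHDF2 RIP. Its values were 0.94, 0.77 and 0.66, and the last lost its call without YTHDF3-ADAR input replicate 1, at 0.56.

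The members lower with YTHDF2 in all 3 lines numbered 12, and LINC00571, LINC00649, LINC01588 and LINC02381 were so under every alternative. This pattern was not counted over all genes. LINC01588 (chr14:49927571-50105043, minus strand, exon length 17590) held 2.26, 2.69 and 1.40 CPM in the YTHDF3-ADAR inputs and 0.451, 0.588 and 0.292 in the YTHDF2 RIP. The RIP libraries were all below the inputs, and the log2 fold change of -2.21 ± 0.33 (adjusted p = 5.9e-06) was the lowest with YTHDF2 in that line. It was -1.65 and -1.35 in YTHDF1-ADAR and YTHDF2-ADAR cells. For YTHDF2, the interaction with line called 0 members and 0 of all genes tested (0%) by edgeR, with 5 members at an unadjusted p under 0.05, and 0 members by DESeq2.

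YTHDF3 RIP raised 10, 32 and 17 members and lowered 46, 33 and 33 in the lines in turn. The backgrounds were 31.6% (11.5% higher, 20.1% lower), 32% (15.2% and 16.9%) and 29.6% (13.5% and 16.1%), beside 34.8%, 40.4% and 31.1% of members. The members' median differed from that of all genes by -0.03, -0.05 and -0.03. Leaving out 1 library at a time moved these from -0.11 to 0.02, -0.09 to 0.04 and -0.08 to 0.02, so the sign turned in every line, with the positive values without RIP replicate 1 of each line and without YTHDF1-ADAR input replicate 3. Over the 56 members with 5 CPM or more the differences were 0.20, 0.27 and 0.14, again from the median of all genes tested at any input level. In YTHDF1-ADAR cells 27 rose and 19 fell without RIP replicate 2, 15 and 26 without input replicate 3 and 17 and 34 without input replicate 1. Over all left-out libraries the members that rose numbered 10 to 27, 19 to 26 and 9 to 16, and those that fell 19 to 50, 30 to 36 and 27 to 34. With total counts the splits were 29 and 29, 56 and 21, and 34 and 23, with DESeq2 size factors 20 and 40 in YTHDF1-ADAR cells, and with DESeq2's test 23 and 41 there. The interaction of YTHDF3 RIP with line called 0 members in edgeR and DESeq2, with 14 at an unadjusted p under 0.05, and 0.00628% of all genes in edgeR.

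Members lower with YTHDF3 in all 3 lines numbered 26, and 12 held under every alternative: LINC00324, LINC00571, LINC00649, LINC01311, LINC01315, LINC01588, LINC01605 (ENSG00000253414), LINC01618, LINC01715, LINC01783, LINC02381 and LINC02637. No count of this pattern over all genes was made. LINC01311 (ENSG00000260924, chr22:19171395-19172839, plus strand, 1445 exon bases, no overlapping gene) held 4.80, 4.96 and 5.54 CPM in the YTHDF3-ADAR inputs and 0.877, 1.34 and 1.01 in the YTHDF3 RIP. The 9 YTHDF3 RIP libraries of all lines were at most 1.41 CPM and the 9 inputs at least 3.17. Its log2 fold changes were -1.75, -1.86 and -2.25, each ± 0.30 or 0.31. LINC01315 (chr22:42364390-42369284, minus strand, 1325 exon bases) gave -2.40, -1.88 and -2.04, and the second was -2.50 without RIP replicate 2. LINC01618, at -1.15, -1.29 and -1.46, shares 32.1% of its exon bases with the protein-coding RASL11B.

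Higher with YTHDF3 in all 3 lines were LINC00205, LINC01128, LINC01232, LINC01291 and LINC02814, and of these only LINC00205 was so under every alternative. LINC01291 (chr2:74918148-74938418, plus strand) held 4.12, 4.15 and 4.86 CPM in the YTHDF2-ADAR inputs and 8.24, 5.60 and 8.89 in the YTHDF3 RIP. All 3 RIP libraries were above the inputs. Its values of 0.75, 0.79 and 0.80 each lost the call without 1 library or another, with values from 0.59 to 0.69 in those fits. For LINC01128 (chr1:825138-859446, plus strand, exon length 15682) the values were 0.65, 0.74 and 0.64, and the last lost its call without YTHDF3 RIP replicate 1 of that line, at 0.43.

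The RIPs were also set against each other within a line, which needs no input. In YTHDF1-ADAR cells 56 members were higher and 15 lower in YTHDF1 than in YTHDF2 RIP (background 39.1%, with 20.3% higher and 18.8% lower), and 69 were higher and 23 lower in YTHDF1 than in YTHDF3 RIP (background 41.1%, with 22.4% and 18.7%). LINC00847 (chr5:180830326-180839742, plus strand) held 16.0, 15.9 and 11 CPM in the YTHDF1 RIP, 2.71, 3.00 and 1.99 in the YTHDF2 RIP and 3.16, 2.29 and 3.09 in the YTHDF3 RIP, and 41.7% of its exon bases are shared with other genes. The YTHDF1 libraries were far above the others, with differences of 2.47 ± 0.27 (adjusted p = 3.3e-09) and 2.32 ± 0.27 (adjusted p = 5.2e-09). LINC02637 (chr10:46632387-46635472, plus strand, 551 exon bases, 52.8% of them shared with the pseudogene RHEBP1) differed most between YTHDF1 and YTHDF3 RIP, by 2.60 ± 0.24 (adjusted p = 6.7e-11). LINC00641 (chr14:21200079-21206900, minus strand, no overlapping gene) was the lowest in the same comparison, at -2.06 ± 0.27 (adjusted p = 1e-07), with 14.4, 12.3 and 22.2 CPM in YTHDF1 and 72, 78.4 and 54.5 in YTHDF3 RIP.

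YTHDF2 and YTHDF3 RIP, averaged over the 3 lines, differed in 64 members, 28 higher and 36 lower with YTHDF2 (background 36.7%, with 19.7% higher and 17% lower). LINC01311 and LINC01560 (chrX:47483571-47484823, plus strand, no overlapping gene) were the highest with YTHDF2, each by 1.57 ± 0.18 or 0.19 (adjusted p = 4.6e-09 and 1.7e-08). LINC01560 held 2.57, 3.68 and 4.66 CPM in the YTHDF2 and 1.09, 0.988 and 1.02 in the YTHDF3 RIP of YTHDF2-ADAR cells, without overlap. LINC00632 (-1.26 ± 0.27, adjusted p = 0.00054) and LINC01291 (-1.24 ± 0.15, adjusted p = 1.6e-08) were the highest with YTHDF3. Both calls held with every library left out in turn.

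The inputs of the lines differed too. The same inputs set the 1 CPM limit of the members. Through the YTHDF1-ADAR inputs alone 5 members reached it, against 0 through those of either other line alone. The counts of this paragraph include these members, and the part of the limit in the splits was not tested. Between YTHDF1-ADAR and YTHDF2-ADAR inputs 30 members were higher and 6 lower in the first (background 17.6%, with 13.3% higher and 4.3% lower), and between YTHDF1-ADAR and YTHDF3-ADAR inputs 30 and 6 (background 16.4%, with 11.3% and 5.1%). Without YTHDF1-ADAR input replicate 1, which stands apart, 10 and 17 members were called. The first count was 19 and 18 without replicates 1 and 2 of the YTHDF2-ADAR input, and the second 22 and 23 without replicates 1 and 2 of the YTHDF3-ADAR input. With total counts the first split was 34 and 2, and with DESeq2's test the second was 31 and 13. Between YTHDF2-ADAR and YTHDF3-ADAR inputs 3 members were higher and 6 lower in YTHDF2-ADAR cells (background 3.42%, with 1.27% higher and 2.15% lower).

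LINC01687 (ENSG00000233215, chr21:22008756-22098518, minus strand) separated the lines most. Its inputs held 3.40, 2.03 and 1.65 CPM in YTHDF1-ADAR and 3.22, 2.75 and 2.55 in YTHDF3-ADAR cells, against 0.0349, 0 and 0 in YTHDF2-ADAR cells. Its highest value among the 12 libraries of YTHDF2-ADAR cells was 0.268 CPM, and the differences of the inputs had adjusted p of 9.1e-09 and 1.7e-09 (edgeR). LINC00665 (chr19:36259540-36331770, minus strand), which has been reported to encode a small peptide, held 6.37, 6.62 and 8.18 CPM in the YTHDF3-ADAR inputs and 2.20 to 3.16 in the other 6. It was lower by 1.32 and 1.48 on the log2 scale in YTHDF1-ADAR and YTHDF2-ADAR than in YTHDF3-ADAR inputs. LINC00839 (chr10:42475480-42495337, plus strand) ran the other way, with 4.14, 4.86 and 4.15 CPM in YTHDF3-ADAR and 7.29 to 12.5 in the other inputs, differences of 1.05 and 1.39.

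LINC00461 (chr5:88507546-88691057), the neural host transcript of miR-9-2, held 1.33 to 3.57 CPM in the inputs, and its value with YTHDF1 in YTHDF1-ADAR cells was 0.05 ± 0.27. LINC00467 (chr1:211382736-211435570, plus strand), also reported to encode a small peptide, held 11.4, 10.4 and 9.29 CPM in the YTHDF3-ADAR inputs and 7.08, 6 and 6.04 in the YTHDF1 RIP. It fell with YTHDF1 in YTHDF1-ADAR cells by 1.27 ± 0.28 on the log2 scale (adjusted p = 0.00026). In the other lines its values were -1.05 and -0.70, and these calls were lost with total counts, at -0.53 and -0.37. The last was -1.09 without YTHDF3-ADAR input replicate 3.

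Members with at least 3000 exon bases had a higher median than those of 1000 to under 3000 in all 9 comparisons of a RIP with input. Of 95 members with at least 3000 exon bases, 10 rose and 17 fell with YTHDF3 in YTHDF1-ADAR cells, 23 and 12 in YTHDF2-ADAR and 14 and 11 in YTHDF3-ADAR cells. Of 53 members with 1000 to under 3000 bases, 0 rose and 24 fell, 7 and 16, and 1 and 17. The medians of the long and the middle class were -0.03 and -0.67, 0.34 and -0.46, and 0.15 and -0.29. The 13 members under 1000 bases had medians of -0.49, -0.25 and -0.30. Among protein-coding genes with at least 1 CPM in the inputs the medians of the long and middle classes were 0.05 and -0.73, 0.14 and -0.65, and 0.16 and -0.62. Among all 3289 lncRNAs with at least 1 CPM, members included, the medians of the long, middle and short classes lay closer together, at -0.09, -0.17 and -0.02 in YTHDF1-ADAR, 0.21, 0.04 and -0.02 in YTHDF2-ADAR and 0.11, -0.06 and 0.03 in YTHDF3-ADAR cells. The correlation of log2 exon length with log2 fold change over the 161 members was 0.263, 0.247 and 0.300 (Pearson) with YTHDF3, 0.252, 0.128 and 0.133 with YTHDF2 and 0.217, 0.181 and 0.166 with YTHDF1. Over the 56 members with 5 CPM or more it was 0.241, 0.233 and 0.334 with YTHDF3, 0.181, 0.002 and 0.145 with YTHDF2 and 0.12, 0.327 and 0.345 with YTHDF1, so the order of the proteins depends on the limit. Over 13665 protein-coding genes it was 0.521, 0.523 and 0.540 with YTHDF3, and over the 3289 lncRNAs -0.0103, 0.13 and 0.0866. With YTHDF2 these sets gave 0.38, 0.342 and 0.384, and -0.021, -0.0299 and -0.0488. With YTHDF1 they gave 0.192, 0.313 and 0.311, and 0.0519, 0.334 and 0.328. With YTHDF1 in YTHDF2-ADAR and YTHDF3-ADAR cells the 161 members thus had a lower correlation than the 3289 lncRNAs, and in the other comparisons a higher one. Genes share libraries and are not independent replicates, and no test was made.

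**Figure D5:**
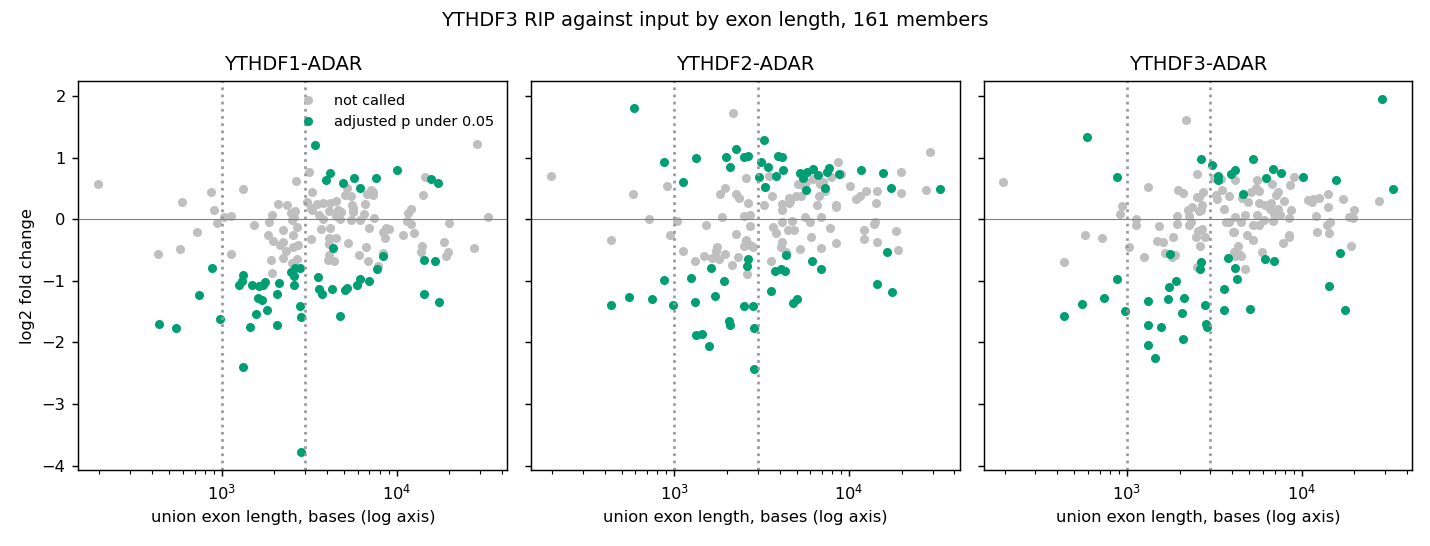
YTHDF3 RIP against input (log2 fold change, vertical axis) by union exon length (log axis, bases) for the 161 members in each line, with called members in colour and dotted lines at 1000 and 3000 bases. Members of 1000 to under 3000 bases lie lower (medians -0.67, -0.46 and -0.29) than those of 3000 or more (-0.03, 0.34 and 0.15).

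Other classes of RNA give the scale. With YTHDF1 the medians of 13665 protein-coding genes were -0.18, -0.61 and -0.58 in the lines in turn, against 0.07, 0.61 and 0.48 for the LINC members. Those of 655 antisense lncRNAs were 0.10, -0.07 and -0.05, and those of 56 snoRNA or miRNA host genes were -1.15, 0.65 and 0.39. For 150 divergent lncRNAs (symbols ending in -DT) they were 0.25, -0.34 and -0.39, and for 2267 other lncRNAs -0.08, -0.21 and -0.15. With YTHDF2 the medians of the LINC members were -0.26, -0.17 and -0.14. Those of divergent lncRNAs were -0.34, -0.16 and -0.19, and those of snoRNA or miRNA host genes -0.42, -0.38 and -0.62. Protein-coding genes had -0.10, 0.06 and 0.06, antisense lncRNAs -0.11, 0.01 and 0.01, and other lncRNAs -0.08, 0.08 and 0.07. The low YTHDF2 median was thus not particular to the members. The differences between classes were not tested.

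Editing could not be described for the members. The authors' deposited editing tables listed 7829 genes for YTHDF1-ADAR, 2402 for YTHDF2-ADAR and 2944 for YTHDF3-ADAR cells, almost all protein coding, with 1, 0 and 0 lncRNAs. None of them listed a member (0 of 161). The rule that made the tables is not given in the sources used here, so a missing member says nothing about its editing.

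The authors' deposited table, which gives 1 fold change per protein rather than per line, called 63 members higher and 21 lower with YTHDF1, 21 and 26 with YTHDF2, and 26 and 44 with YTHDF3. The shares called over all its genes were not computed, so these counts have no background to be set against. The medians in the authors' deposited table were 0.31, -0.11 and 0.01. For LINC01128 the authors' deposited table gave 0.87, 0.84 and 0.76.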

How the data were processed

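RNA-seq libraries of 3 HEK293T lines were grouped by their labels into 12 groups of 3. Alignment to GRCh38 with STAR 2.7.7, counting with featureCounts 2.0.1 and a DESeq2 comparison were the authors' steps, per the submitters' processing notes. Per the file headers, the deposited read counts came from an Ensembl release 102 annotation, count multi-mapped and multi-overlapping reads, leave out marked duplicates and use no strand. The authors' deposited comparison table holds a mean signal (baseMean), log2 fold changes and p-values, and was used for symbols and biotypes. The authors' deposited editing tables give per gene, with replicates pooled, a site number, p-values, a natural log odds ratio and a score, and were used for their gene lists. Exon lengths and coordinates were deposited with the counts, and no per-sample column was left out (0).

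Counts were fitted as 1 model of 12 groups in edgeR 4.0.16 under R 4.3.3 with limma 3.58.1 (filterByExpr, TMM, estimateDisp, robust glmQLFit, glmQLFTest), with Benjamini-Hochberg adjustment over all 31849 genes and a threshold of 0.05. SE is the absolute log2 fold change over the square root of F. CPM values are TMM scaled. Each RIP was set against the input of its line, enrichment was compared between lines by an interaction, RIPs with each other, and inputs with each other. Depth was 12.5 to 37.5 M counts, and precision is given as SE. The steps were tested on simulated data. Alternatives were other scalings (DESeq2 1.42.0 size factors, total counts), DESeq2's test, no filter, a replicate block and each library left out. Calls were said to hold under every alternative from the left-out libraries, both other scalings and DESeq2's test only.

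The members and lists were chosen with earlier results of these data known. Named members are the 3 highest and 3 lowest called per RIP and line, the 8 most abundant, the 4 longest and 4 shortest, the 5 with most edits listed (none), the 3 of smallest p per interaction, the 2 highest and 2 lowest called in the other comparisons, and a list with known roles. Members outside this rule, such as LINC01001, LINC01002 and those named for a pattern over lines, were chosen after their values were seen. Replicate numbers were checked for pairing: the correlation of the deviations of same-numbered RIP and input libraries was over 0.1 in every pair in 2 of 9 comparisons, with values from -0.558 to 0.438 in all, so they were not taken as pairs. No 2 libraries of the same group agreed within counting noise; libraries of different groups were not compared in this way.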

Additional observations from a re-analysis of the deposited data

Results flagged for a closer look

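The YTHDF1 enrichment over input differed between the 3 lines by the edgeR interaction test in 114 of the 161 members (70.8%). The same test called 63.7% of the 31849 genes tested, so most genes of the series differed in this way. The smallest adjusted p-values were 5.4e-13 for LINC02595, 1.4e-12 for LINC00337 and 2.5e-12 for LINC00174. LINC00174 (chr7:66376044-66493566, minus strand) held 9.64, 9.88 and 10.8 CPM in the YTHDF2-ADAR inputs and 50.04, 53.3 and 48.6 in the YTHDF1 RIP, with log2 fold changes of 2.33 there, 2.45 in YTHDF3-ADAR cells and -0.69 in YTHDF1-ADAR cells. The last call was lost without input replicate 1 of that line, at -0.38. LINC00174 shares 12.99% of its exon bases with other genes. The 6 libraries of the YTHDF1 RIP in YTHDF2-ADAR and YTHDF3-ADAR cells differ from the rest in depth and snoRNA share, and their part in these results was not tested.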

How the results depend on the processing

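Leaving out each library in turn, with filter and scaling recomputed, gave 80 to 90, 104 to 108 and 91 to 98 members called with YTHDF1 RIP against input in the 3 lines in turn, 22 to 40, 29 to 32 and 19 to 35 with YTHDF2, and 41 to 60, 49 to 59 and 39 to 47 with YTHDF3. The same fits gave 99 to 113 members for the YTHDF1 enrichment between lines and 0 to 0 for those of YTHDF2 and YTHDF3. They gave 59 to 76 for YTHDF1 against YTHDF2 RIP, 83 to 92 for YTHDF1 against YTHDF3 RIP and 56 to 72 for YTHDF2 against YTHDF3 RIP. For the inputs they gave 10 to 39 (YTHDF1-ADAR against YTHDF2-ADAR), 17 to 44 (YTHDF1-ADAR against YTHDF3-ADAR) and 7 to 8 (YTHDF2-ADAR against YTHDF3-ADAR). Counts that moved by over 1.5 times otherwise were YTHDF2 RIP in YTHDF1-ADAR cells with total counts (24), the YTHDF2 and YTHDF3 enrichment between lines with no filter (1 and 3), the YTHDF2-ADAR against YTHDF3-ADAR inputs with no filter (14), and the YTHDF1-ADAR inputs against those of YTHDF2-ADAR and YTHDF3-ADAR with 2 libraries left out together (13 and 21), an alternative chosen with earlier results of these data known. With total counts LINC00963 turned to 0.13 and LINC01123 to 0.20 for YTHDF1 RIP in YTHDF2-ADAR cells. The median of all genes tested in that comparison ran from 0.20 to 0.72 over the scalings, and the cause of the 2 turns was not tested. With a replicate block 89, 122 and 105 members were called with YTHDF1, 41, 39 and 35 with YTHDF2 and 55, 69 and 51 with YTHDF3, and the pairing of numbers moved no count by over 1.5 times. Over members with a mean input of 5 CPM or more, the correlation with exon length was 0.12, 0.327 and 0.345 for YTHDF1 in the 3 lines and 0.002 for YTHDF2 in YTHDF2-ADAR cells. Low counts limit the precision of members near 1 CPM.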

Other observations

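The 10 well-known lncRNAs outside the LINC names that were tested differed among themselves with YTHDF1. In YTHDF1-ADAR cells TUG1 and NORAD rose, OIP5-AS1, PVT1, SNHG1, GAS5 and SNHG5 fell, and MALAT1, NEAT1 and KCNQ1OT1 did not pass the threshold (edgeR). TUG1 gave 1.68 with YTHDF1 in YTHDF1-ADAR cells and -0.55 and -0.33 in YTHDF2-ADAR and YTHDF3-ADAR cells, and NORAD, a cytoplasmic RNA that binds Pumilio proteins, gave 1.32, -0.88 and -0.75. LINC00205 gave 1.90, -0.21 and 0.13 in the same comparisons. The opposite order of lines was seen for PVT1 (-0.77, 3.33 and 3.08), SNHG1 (-1.79, 1.44 and 1.09) and NEAT1 (-0.78, 1.66 and 2.48), and MALAT1 gave 0.68, 1.78 and 1.88. GAS5 gave -1.88, 0.32 and 0.04 and OIP5-AS1 -0.68, -1.53 and -1.57. The higher values of MALAT1, NEAT1, PVT1 and SNHG1 in YTHDF2-ADAR and YTHDF3-ADAR cells were measured in the 6 libraries that stand apart, whose part was not tested. SNHG5, a snoRNA host, was at -2.24, -0.98 and -1.21 with YTHDF1 and at -2.27, -2.76 and -2.83 with YTHDF3, lower than any YTHDF3 value of LINC00649. KCNQ1OT1, a nuclear antisense RNA, gave 0.32 in YTHDF1-ADAR cells and 5.33 and 4.998 in the others, where LINC00342 gave 4.45 and 4.81.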
